A study of Oryza sativa Japonica Group with 6 samples.

Results

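Of the rice MADS-box genes, those related to Arabidopsis ANR1 were examined in roots deprived of N. The genes were chosen by name, as every probe set of a gene whose symbol or synonym is MADS23, MADS25, MADS27, MADS57 or MADS61. The annotation held 4 of these 5 names, and MADS61 was not matched to a probe set and is not analysed here. The matched genes MADS25 (LOC4335427), MADS27 (LOC4329771), MADS57 (LOC4330621) and MADS23 (LOC4345644) had 6 of the 57194 probe sets other than controls and were 4 of 17905 genes.

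The −N group consisted of roots from TNG67 rice, a japonica cultivar, whose 10-day-old seedlings spent 1 h in hydroponic solution without ammonium nitrate. The +N group consisted of roots from seedlings of the same cultivar and age in solution with ammonium nitrate. Each group had 3 biological replicates, each measured on 1 Affymetrix rice array. According to the treatment label both groups were moved, whereas the Methods mention a move only under −N. The source label of +N replicate 3 reads 0.5 h, and −N replicates 1 and 2 carry the word reanalysis in their titles. Array medians were 33.3 to 35.2 in −N and 34.3 to 34.9 in +N, and the arrays of replicate 1 stood apart in their upper quartile, at 130.5 in −N and 136.8 in +N, beside 166.5 to 179.5 on the other 4 arrays. Same-numbered −N and +N arrays held exactly equal values in 3.26%, 3.81% and 3.30% of probe sets, and none of these was a probe set of the members.

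MADS-box proteins are transcription factors that bind DNA as dimers, and most characterised members in rice act in flowering and floral organs. The ANR1-like clade is the one linked to nutrition of the root. In Arabidopsis, ANR1 is needed for lateral roots to grow into nitrate-rich patches. In rice, MADS25 promotes primary and lateral root growth in a nitrate-dependent manner, MADS27 acts in nitrate-dependent root growth and stress tolerance, MADS57 acts in tillering and in nitrate transport from root to shoot, and MADS23 acts in drought and salt responses. Transcripts of MADS23, MADS27 and MADS57 are cleaved by the monocot microRNA miR444, whereas MADS25 is not known as its target.

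MADS25 and, by its brighter probe set, MADS27 had lower intensities after 1 h of −N. The dimmer probe set of MADS27 had groups that overlapped. MADS57 and MADS23 lay low on the arrays, and their groups overlapped too. MADS25 was at 0.501 times its +N value and MADS27 at 0.780 times. No member passed the test across all genes (moderated test of limma, −N against +N, two-sided, Benjamini-Hochberg adjusted p under 0.05 over 17905 genes), a test that called 0.106% of all genes. At an unadjusted p under 0.05, 1 of the 4 members was lower and 0 were higher, beside 3.08% of all genes lower and 2.17% higher. Values are linear intensities, which were taken to log2 for the test, and fold changes are log2 differences of −N minus +N.

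MADS25 had intensities of 59.4, 54.8 and 75.5 in −N replicates 1, 2 and 3, against 93.5, 133.8 and 156 in +N replicates 1, 2 and 3. All −N arrays lay below all +N arrays, as they did in 5.32% of all genes. Means were 63.3 ± 10.9 in −N and 127.8 ± 31.7 in +N (SD, n = 3 each). The log2 fold change of MADS25 was −0.996 (SE 0.26, 95% interval −1.60 to −0.39, adjusted p = 0.450 from limma). Its unadjusted limma p of 0.00555 ranked 219 among the 17905 genes. The difference was thus larger than the spread between replicates of this gene taken alone, and it did not pass when all genes were considered. In an exact permutation test of 3 against 3 arrays, a full separation gives p = 0.10, which is the smallest such a design allows.

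MADS25 was also lower in −N within each replicate number. The log2 difference of −N minus +N was −0.65 in pair 1, −1.29 in pair 2 and −1.05 in pair 3. Of all genes, 17.5% were lower in −N in all 3 pairs. When the replicate number entered the fit as a block, the SE of MADS25 narrowed to 0.15 (95% interval −1.37 to −0.62, adjusted p = 0.0752 from limma over all genes, which called 0.620% of them). A fit of each of the 57194 probe sets on its own with the same block was chosen after seeing the data. MADS25 passed in it (adjusted p = 0.0392 from limma, in a fit that called 0.726% of the probe sets). Without the block MADS25 did not pass (adjusted p = 0.681 from limma). The 2-fold cutoff that the study applies also ran through its value, since +N was 1.99 times −N by geometric means and 2.02 times by arithmetic means. By geometric means 1.40% of all genes were at least 2-fold lower, and MADS25 ranked 253 from the lowest log2 fold change, just outside them. Without −N replicates 1 and 2, a fit also chosen after seeing the data, the log2 fold change of MADS25 was −0.73. Without +N replicate 3 it was −0.84.

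**Figure D1:**
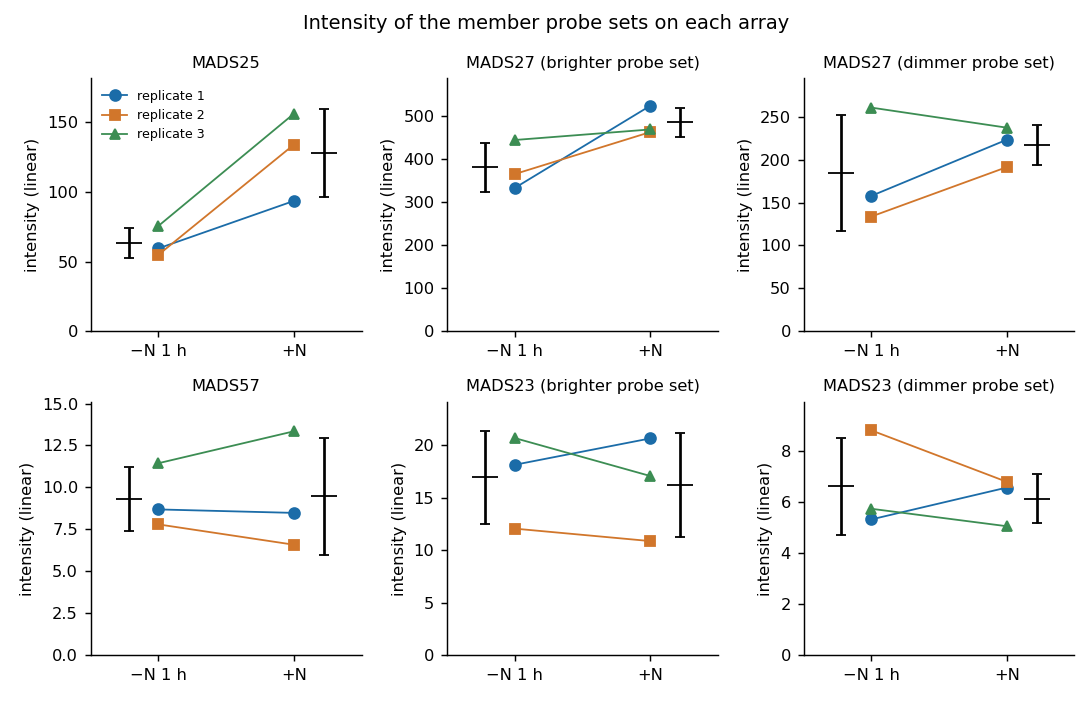
Linear intensity of the 6 member probe sets (vertical axes, each from 0) in −N (left) and +N (right), with a line for each replicate number and the mean ± SD of 3 arrays in black. MADS25 was lower in −N on every line, whereas the lines of MADS57 and MADS23 ran both ways.

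MADS27 was represented by its brighter probe set, which had intensities of 333.5, 365.7 and 444.9 in −N replicates 1 to 3, against 524.7, 463.4 and 469.5 in +N replicates 1 to 3. The −N arrays again lay below the +N arrays, with the highest −N array close to the lowest +N array. Means were 381.4 ± 57.4 in −N and 485.8 ± 33.8 in +N (SD, n = 3 each). The log2 fold change of MADS27 was −0.36 (SE 0.21, 95% interval −0.84 to 0.12, adjusted p = 1.00 and unadjusted p = 0.124 from limma). Its log2 difference was −0.65, −0.34 and −0.08 in pairs 1, 2 and 3, so it was negative in each and nearly nil in pair 3. With the block the unadjusted p was 0.0467 and the adjusted p 0.234 in limma, in a fit where 7.89% of all genes were lower at an unadjusted p under 0.05. MADS27 and MADS25 were the 2 of 4 members with non-overlapping groups, and both were lower, beside 5.32% of all genes with −N below +N. The log2 fold change of MADS27 was −0.12 without −N replicates 1 and 2 (a fit chosen after seeing the data), and −0.38 without +N replicate 3.

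The dimmer probe set of MADS27, whose name marks it as matching alternative transcripts of the gene, did not keep the groups apart. It had intensities of 157.7, 133.7 and 260.7 in −N, against 223.2, 191.3 and 237.3 in +N. It was lower in −N in pairs 1 and 2 (log2 differences of −0.50 and −0.52) and higher in pair 3 (0.14). Its log2 fold change was −0.29 (SE 0.27, unadjusted p = 0.311 from limma over all probe sets). Both probe sets of MADS27 thus leaned the same way on average, and −N replicate 3 was the highest of the −N arrays in each.

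MADS57 had intensities of 8.68, 7.79 and 11.4 in −N, against 8.47, 6.58 and 13.3 in +N, for replicates 1, 2 and 3. The −N range lay inside the +N range, and replicate 3 was highest and replicate 2 lowest in both. These values lay between the 5.12 and 27.0 percentiles of the probe sets of their arrays. The log2 fold change of MADS57 was 0.02 (SE 0.31, 95% interval −0.69 to 0.73, adjusted p = 1.00 from limma). With the block the interval was −0.29 to 0.33, so a 2-fold change in either direction lay outside both intervals on this scale. The files used here hold no detection call, and whether so dim a probe set followed its transcript was not tested.

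MADS23 was measured by a pair of probe sets, both low on the arrays. The brighter of them had intensities of 18.1, 12.1 and 20.7 in −N, against 20.7, 10.9 and 17.1 in +N. Replicate 2 was the lowest in both groups, and the groups overlapped. The log2 fold change of MADS23 was 0.08 (SE 0.32, 95% interval −0.66 to 0.82, adjusted p = 1.00 from limma, and −0.24 to 0.40 with the block). Its dimmer probe set had intensities of 5.31, 8.81 and 5.73 in −N, against 6.56, 6.79 and 5.05 in +N, with a log2 fold change of 0.08 (SE 0.25). The dimmer probe set lay between the 0.743 and 13.7 percentiles of its arrays and the brighter between 20.4 and 39.9, whereas the brighter probe set of MADS27 lay between the 83.4 and 90.6 percentiles and MADS25 between 58.4 and 74.2. Percentiles place a probe set within its array and do not compare transcript amounts between genes.

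**Figure D2:**
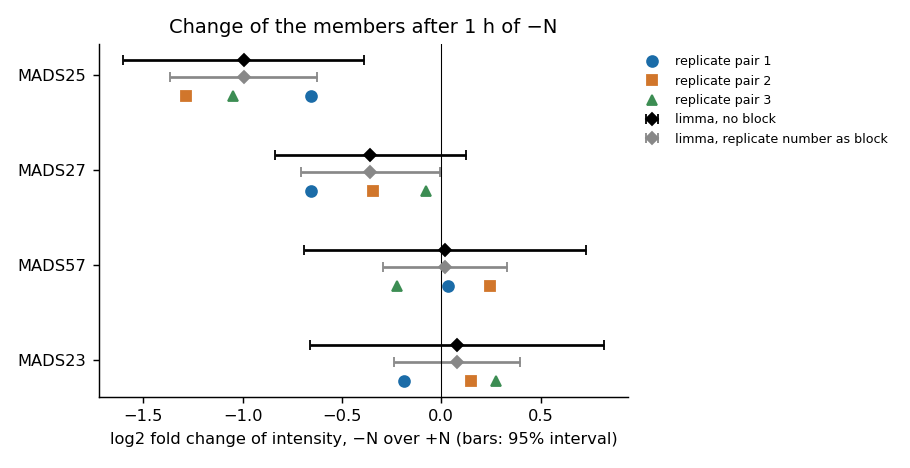
Log2 fold change of intensity of the 4 members, −N over +N (horizontal axis), with 95% intervals from limma without (black) and with (grey) the replicate number as a block, and the difference within each replicate pair as coloured points. The intervals of MADS25 lie below 0 in both fits, and those of MADS57 and MADS23 span 0.

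Represented by their brightest probe sets, the members were split by what set their arrays apart. Treatment held 78.7% of the sum of squares of log2 intensity of MADS25 over the 6 arrays and 63.6% of that of MADS27. In MADS57 and MADS23 it held 0.0770% and 1.21%, and the replicate number held 92.1% and 91.5%. Across all genes the median share was 6.96% for treatment and 80.1% for the replicate number, and 15.7% of genes had the larger share for treatment. The larger share thus lay with the replicate number in MADS57 and MADS23, as in most genes on these arrays. It lay with treatment in MADS25 and in the brighter probe set of MADS27. Shares were not computed for the dimmer MADS27 probe set, whose groups overlapped, so the split of MADS27 rests on 1 probe set. The replicate number has more levels than treatment, so without an effect of either it would more often take the larger share.

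**Figure D3:**
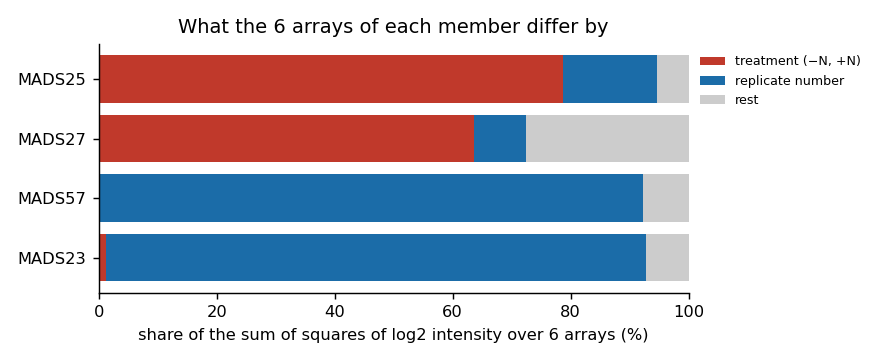
Share of the sum of squares of log2 intensity over the 6 arrays (horizontal axis, percent) held by treatment, replicate number and the rest, for each member. MADS27 and MADS23 are shown by their brighter probe sets. Treatment takes 78.7% in MADS25 and 63.6% in MADS27, and replicate number takes over 90% in MADS57 and MADS23.

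Whether the members differed from each other in their response was tested for all 6 pairs with exact two-sided permutation tests over the 6 arrays. The largest gaps were between MADS23 and MADS25, where the log2 fold changes differed by 1.08 (exact p = 0.20), and between MADS25 and MADS57, where they differed by −1.01 (exact p = 0.10). Both gaps involve a gene low on the arrays, MADS23 or MADS57, and whether so dim a probe set followed its transcript was not tested. MADS25 and MADS27 differed by −0.64 (exact p = 0.20), with differences of 0.00, −0.95 and −0.97 in pairs 1, 2 and 3. All 6 adjusted p were 0.40 or above. With 3 arrays in a group no p under 0.10 was possible, and the tests did not use the replicate pairs, so they do not show that the members responded alike. The difference kept its sign in all 3 pairs for MADS23 minus MADS25 (0.47, 1.44 and 1.32), for MADS25 minus MADS57 (−0.69, −1.53 and −0.82) and for MADS23 minus MADS27 (0.47, 0.49 and 0.35). Agreement of 3 signs is common without any difference, the 6 comparisons share the same genes, and the signs were not tested.

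The other measured MADS-box genes give the family against which the clade can be read. There were 27, most of them of floral or flowering-time clades, and none passed in limma in either direction, with or without the block, nor had any an unadjusted p under 0.05. Their log2 fold changes ran from −0.24 to 0.23 with a median of −0.02, beside a median of 0.03 over all genes. The 4 ANR1-like members had a median of −0.17, with 2 above 0 and 2 below it. Medians of the other clades ran from −0.12 in the 5 SEP-like genes, all below 0, to 0.08 in the 2 SOC1-like genes. Of the 27, 1 had non-overlapping groups, MADS21, a dim gene of the D lineage with intensities of 5.83 to 6.67 in −N and 6.84 to 7.18 in +N, singled out after its values were seen. Only 3 of the 27 had a mean log2 intensity above the median of all genes, and these were also the 3 brightest. Of the 4 members MADS27 alone lay above that median, and MADS25 had a mean log2 intensity of 6.47 beside the median of 7.74. MADS18, of the clade of floral meristem genes, had a log2 fold change of −0.24 (SE 0.27). The SVP-like flowering and brassinosteroid genes MADS22 and MADS47 had 0.21 (SE 0.52) and 0.01 (SE 0.25).

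**Figure D4:**
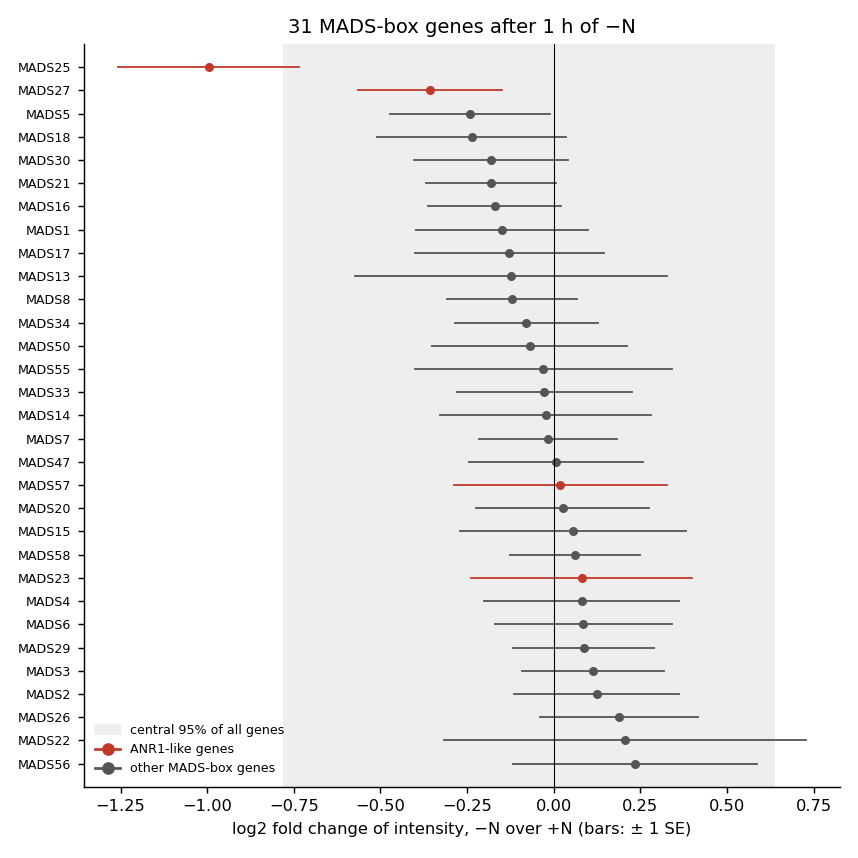
Log2 fold change of intensity, −N over +N, with ± 1 SE from limma for the 31 measured MADS-box genes in order of value, with the ANR1-like members in red, the others in dark grey and the central 95% of all genes shaded. MADS25, at −0.996, lies outside the shaded range, and the other 30 points lie inside it.

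Genes whose pattern over the 6 arrays was most like that of a member were taken from 2429 genes with a name, for the members whose highest array was at least 2 times the lowest. For MADS25 these were the protein phosphatase gene PP2C39 (Pearson r = 0.98 over 6 arrays), panC (0.98) and the copper transporter gene COPT1 (0.98). PP2C39 had a log2 fold change of −1.39, and panC and COPT1 had −0.39 and −0.20. For MADS57 they were GL2-1 (0.99), AIP2 (0.98) and AP25 (0.97), with log2 fold changes of 0.08, 0.03 and 0.13. The 6 arrays share their replicate numbers in pairs, so these values describe a pattern and were not tested.

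The arrays were also checked against the label root, with 5 of 7 root markers and 2 of 5 green shoot markers matched. The summed intensity of the root markers was 17665.5 to 20647 in −N and 20107 to 27018 in +N, and these ranges overlapped. The silicon transporter genes LSI1 and LSI2 lay at or above the 98.8 percentile on every array, and the ammonium transporter gene AMT1;2 between the 89.03 and 98.97 percentiles. SHR1 lay between the 70.2 and 78.1 percentiles and SCR1, at 26.02 to 46.7, below the median of every array. AMT1;2 had intensities of 1887, 619.4 and 1166 in −N replicates 1 to 3, against 3249, 4770.0 and 4082 in +N replicates 1 to 3, so the sum of the root markers also moved with it. The green shoot markers RBCS and CAB2R, which encode a Rubisco subunit and a chlorophyll-binding protein, were also bright, with a sum of 6048 to 10592 in −N and 12014.5 to 18309.7 in +N. Their −N and +N sums did not overlap, as for MADS25, and their part in the change of MADS25 was not tested. All 7 flower organ MADS-box genes were measured, and their summed intensity was 318.9 to 374.8 in −N and 333 to 362.3 in +N. MADS16 (73.9 to 77.5 percentiles) and MADS4 (64.9 to 77.0) lay about as high as MADS25 (58.4 to 74.2). The rest lay lower, at 2.27 to 50.4. In root tissue as a whole, fewer cells that express a gene and less RNA in each cell cannot be told apart.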

How the data were processed

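The authors deposited linear intensities, 1 per probe set and array, with GCOS and RMA named in the submitters' processing notes. Their versions and roles are not given there. The 187 control probe sets were left out. Names came from the platform's probe annotation and from RefSeq genes (assembly ASM3414082v1), whose coordinates were not used. Of 57381 probe sets, 22436 had 1 gene symbol, 95 several and 34850 none. Where a gene had several probe sets, the one brightest on average over 6 arrays stood for it, and dim probe sets were kept. The comparison of −N with +N used limma 3.58.1 (lmFit, eBayes) under R 4.3.3 on log2 values, adjusted by Benjamini-Hochberg over all genes. Array data carry no read depth, and the number of arrays limits the precision.

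The replicate number is shared by both groups. Deviations from the group means correlated at 0.785, 0.664 and 0.653 between −N and +N arrays of number 1, 2 and 3. Percentiles of these same-numbered arrays were at most 0.0781, 0.0497 and 0.0907 apart in log2. Between other arrays the largest difference was 0.0969 to 0.570. Same-numbered arrays were thus alike, and fits with the number as a block were made. Pairing by number comes from the data, since no source says what a number marks. Whether the likeness lies in the samples or in their processing was not tested. Exactly equal values occurred between same-numbered arrays alone, and 5 of the 33 probe sets of other MADS-box genes had one. What made the values equal was not tested. The titles call the replicates biological but do not say whether each was a culture of its own, and p-values reflect the spread among these arrays. The members, lists and tests were chosen with earlier results of these data known. Named genes were all members, the 3 other MADS-box genes with the highest and lowest fold change above the median level, the 3 brightest, and those most like a member by Pearson r. Alternatives were the block, quantile normalization, median centring, log2(value + 16), a filter on dim probe sets, averaged probe sets, every probe set tested, and each array left out.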

Additional observations from a re-analysis of the deposited data

How the results depend on the processing

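MADS25 was lower in −N under all 18 alternatives, with log2 fold changes of −1.21 to −0.73, and passed in 1 of them, every probe set tested with the replicate number as a block (log2 fold change −0.996, adjusted p = 0.0392 from limma), where 1 of the 4 members passed in place of 0. This fit, the fits with both arrays of a replicate number left out under the block, and the fit without −N replicates 1 and 2 were chosen after seeing the data. The last leaves 1 −N array, which is assumed to vary like +N. With single arrays left out, the value of MADS25 ran from −1.21 to −0.84 and its adjusted p from 0.372 to 1.00 in limma, and with both arrays of a replicate number left out under the block from −1.17 to −0.85. MADS27 was lower under all 18, between −0.50 and −0.12, and never passed. It was smallest without −N replicates 1 and 2 (−0.12). Single arrays left out gave −0.47 to −0.27, and pairs left out −0.50 to −0.21. MADS57 and MADS23 changed sign. MADS57 was at −0.0031 with log2(value + 16), ran from −0.21 to 0.30 with single arrays left out, negative without −N replicate 3, +N replicate 1 or +N replicate 2, and from −0.094 (without replicate 2) to 0.14 with pairs left out. MADS23 ran from −0.18 to 0.31, negative without −N replicate 3 or +N replicate 2, and from −0.019 (without replicate 3) to 0.21 with pairs left out. The filter on dim probe sets kept MADS25 and MADS27 alone. Other MADS-box genes passed in 0 cases under every alternative.

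Over all genes, 4 were higher and 15 lower in −N. With the replicate block there were 38 higher and 73 lower. Quantile normalization gave 2 higher, every probe set on its own 0 higher and 4 lower, and every probe set with the block 190 higher and 225 lower. With single arrays left out there were 0 to 10 higher and 0 to 14 lower, above 0 only without −N replicate 1. With pairs left out under the block there were 0 to 63 higher and 0 to 44 lower, above 0 only without replicate 1, and without −N replicates 1 and 2 there were 0 of each. The cause was not tested. The number of arrays and the low signal of MADS57 and MADS23 limit what could be seen.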
